A study of Homo sapiens with 24 samples.

Results

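GDF15 and 9 genes of the integrated stress response were followed across 24 arrays of human dopaminergic neurons exposed to rotenone. The 10 genes were GDF15, FGF21, ATF4, EIF2AK1, EIF2AK2, EIF2AK3, EIF2AK4, OMA1, PPP1R15A and PPP1R15B. They were listed by name for their known roles, with earlier results of these data known, and were found through the RefSeq accessions of the array probes. They were represented by 12 probes and made up 10 of the 21240 genes tested. OMA1 and EIF2AK2 had 2 probes each and the other 8 genes 1 each.

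The cells were LUHMES, an immortalised human midbrain line that was differentiated in 3D aggregates on a shaker, in medium with cAMP, GDNF and tetracycline. On day 7 of differentiation, all cultures received either rotenone, an inhibitor of mitochondrial complex I, or the DMSO in which it was dissolved. Day 8 had 4 groups, collected directly after exposure: DMSO, rotenone at 50 nM over 12 h, the same dose over 24 h, and 100 nM over 24 h. The same 4 groups of day 15 had rotenone washed out and 7 days of recovery. Each of the 8 groups had 3 arrays, and replicates 1, 2 and 3 of every group lay on slides 1, 2 and 3. The 3 rotenone groups of a day shared the DMSO arrays of that day, so their comparisons are not independent of each other. The labels give no exposure time for DMSO, so whether it matched the 12 h of rotenone is not known. All cultures are of 1 cell line, and the labels do not say whether replicates were separate differentiations, so the p-values measure the spread between these arrays.

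The integrated stress response begins with 4 kinases that phosphorylate the translation factor eIF2: EIF2AK1 (HRI, first known as a heme sensor), EIF2AK2 (PKR, a sensor of double-stranded RNA), EIF2AK3 (PERK, in the endoplasmic reticulum) and EIF2AK4 (GCN2, a sensor of amino acid shortage). General translation then falls while that of ATF4 rises, and ATF4 switches on genes for amino acid synthesis and import. When mitochondria fail, the inner-membrane protease OMA1 cleaves DELE1, which activates EIF2AK1. PPP1R15A (GADD34) and PPP1R15B (CReP) bring the phosphatase that reverses the phosphorylation of eIF2. GDF15 and FGF21 are secreted hormones known as mitokines, released by cells with stressed mitochondria. The arrays measured mRNA alone, not the phosphorylation of eIF2, the cleavage of DELE1 or the ATF4 protein.

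GDF15 and OMA1 were the only members that passed the test with rotenone. ASNS and CHAC1 are ATF4 target genes that fell on day 8 and matched a site that ATF4 is known to bind. AARS1, another target that matched, was not called lower on day 8 and is not printed. The sequences below show the 250 bases before the start of GDF15, OMA1, ATF4, ASNS and CHAC1. They were taken from RefSeq promoters on GRCh38.p14, with GDF15 at chr19:18385908-18386157 (plus strand), OMA1 at chr1:58546727-58546976 (minus strand), ATF4 at chr22:39520309-39520558 (plus strand), ASNS at chr7:97872409-97872658 (minus strand) and CHAC1 at chr15:40953221-40953470 (plus strand). Each reads 5′ to 3′ in the direction of its gene, and capitals mark matches, on either strand, to TGATGNAA (the core of the CARE site that ATF4 and CEBP proteins bind), TGACGTCA (the CRE), TATAAA (the TATA box), GGGCGG (the GC box) and the ER stress element (CCAAT, then CCACG after 9 bases).
GDF15: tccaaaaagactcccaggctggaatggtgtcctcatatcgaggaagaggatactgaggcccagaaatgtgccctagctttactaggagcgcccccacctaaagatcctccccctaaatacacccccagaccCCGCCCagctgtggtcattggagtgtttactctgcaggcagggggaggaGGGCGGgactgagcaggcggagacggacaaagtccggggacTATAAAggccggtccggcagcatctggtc
OMA1: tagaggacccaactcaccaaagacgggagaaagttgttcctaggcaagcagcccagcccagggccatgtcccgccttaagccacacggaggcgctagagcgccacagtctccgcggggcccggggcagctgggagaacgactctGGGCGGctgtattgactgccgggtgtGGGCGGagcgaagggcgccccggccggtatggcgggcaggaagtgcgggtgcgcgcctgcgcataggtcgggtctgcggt
ATF4: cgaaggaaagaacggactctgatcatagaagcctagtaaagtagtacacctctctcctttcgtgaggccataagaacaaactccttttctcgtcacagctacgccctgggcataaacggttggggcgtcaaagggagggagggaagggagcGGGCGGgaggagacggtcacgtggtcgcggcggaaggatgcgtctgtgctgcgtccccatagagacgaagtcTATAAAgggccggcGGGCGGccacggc
ASNS: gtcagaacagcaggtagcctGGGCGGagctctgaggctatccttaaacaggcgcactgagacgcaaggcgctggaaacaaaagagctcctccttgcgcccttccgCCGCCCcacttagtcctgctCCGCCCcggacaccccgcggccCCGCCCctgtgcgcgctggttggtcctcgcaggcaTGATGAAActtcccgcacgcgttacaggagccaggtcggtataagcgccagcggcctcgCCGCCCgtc
CHAC1: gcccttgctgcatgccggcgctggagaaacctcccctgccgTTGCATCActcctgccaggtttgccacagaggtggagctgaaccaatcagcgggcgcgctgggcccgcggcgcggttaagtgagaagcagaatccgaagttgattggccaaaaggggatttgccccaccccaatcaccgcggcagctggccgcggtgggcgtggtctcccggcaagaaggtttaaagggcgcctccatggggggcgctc
RefSeq promoters were matched for 9 of the 10 members, all but EIF2AK1, and for 17 of 22 ATF4 target genes. The GDF15 window held a TATA box 29 bases before the start and GC boxes at 119 and 70 bases, and no match to the CARE core. The OMA1 window held GC boxes at 106 and 80 bases and none of the other motifs. The CARE core was matched in 2 of 9 members, FGF21 at 54 and PPP1R15B at 227 bases before the start. It was matched in 3 of 17 target genes, ASNS at 68, CHAC1 at 209 and AARS1 at 187 bases. Some genes have several entries, 10 in all for the members and 22 for the targets, of which 2 and 3 matched. ASNS matched in the first of its 2 entries, the one printed. Of the 8 targets with a promoter that fell on day 8, 2 matched and 6 did not. Of all 35116 promoters, 3.14% held the CARE core, 1.65% the CRE, 10.7% the TATA box, 42.6% the GC box and 0.074% the ER stress element in the same window. PPP1R15A was the only member with a CRE, 58 bases before its start. A match shows these letters, not a bound site, and sites outside the window were not searched.

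Of 12 neuron markers, 11 or 12 were well above background on each array, with TH, SLC6A3 and NR4A2 on all arrays of the day 8 DMSO and 100 nM groups, while SLC18A2, the vesicular monoamine transporter, was on none of these. Astrocyte, oligodendrocyte and microglia markers had mean log2 signals between 3.88 and 5.42 on every array, against 9.12 to 9.43 for the neuron markers. By array, 0 to 6 of 6 astrocyte, 2 to 4 of 4 oligodendrocyte and 0 to 4 of 5 microglia markers were well above background. The 7 markers of proliferating precursors lay between these and the neuron markers, at means of 6.46 to 7.83 with 3 to 6 well above background. Between DMSO days 4 of these 7 precursor markers fell and VIM rose, beside 23.2% of all genes called in either direction. With 100 nM on day 8, 1 of the 7 rose, VIM (0.42, limma, adjusted p = 0.028), beside 4.07% of all genes called higher. The part of such cells in the results below was not tested. Slide 1 had 67.3% to 82.4% of probes well above background and slides 2 and 3 had 50.9% to 62.4%, and by the labels slide 1 was repeated and needs batch correction. Replicate 3 of the day 15 100 nM group had a residual SD over genes of 0.45, against 0.20 to 0.31 on the other 23 arrays. Every group kept the same position on all 3 slides, so position and group cannot be told apart. In these bulk samples, fewer cells of a type and less RNA per cell cannot be told apart.

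GDF15 rose with rotenone on day 8. All values that follow are log2 signals, on the scale of the array's fluorescence. They are given after normalisation and, unless stated, after a batch correction that kept the differences between the groups. In DMSO on day 8, GDF15 was at 8.60, 8.54 and 8.65 on slides 1, 2 and 3. After 50 nM for 12 h it was at 9.03, 9.48 and 9.66, after 50 nM for 24 h at 9.64, 9.46 and 9.85, and after 100 nM for 24 h at 9.91, 9.36 and 9.32. All 9 rotenone arrays lay above all 3 DMSO arrays, whose own spread after batch correction was 0.054 (SD, n = 3). The change against DMSO was 1.06 ± 0.27 (log2, SE) for 50 nM at 24 h, a 2.08-fold rise (limma, adjusted p = 0.018), and 0.93 ± 0.27 for 100 nM at 24 h, a 1.91-fold rise (limma, adjusted p = 0.032). For 50 nM at 12 h it was 0.79 ± 0.27 with an adjusted p of 0.099 (limma), although the unadjusted p of 0.0080 and the fold of 1.73 passed the study's second rule, a fold change above 1.5 with an unadjusted p below 0.01. Within slides, before batch correction, the rotenone array exceeded the DMSO array of the same slide by 0.44 to 1.02 for 50 nM at 12 h, 0.91 to 1.22 for 50 nM at 24 h and 0.66 to 1.30 for 100 nM. Neither call held with every array left out in turn. Without DMSO replicate 1 or 2, or 50 nM 24 h replicate 1 or 3, the 50 nM 24 h change was 1.06, 1.03, 1.06 and 0.95, with adjusted p of 0.055 to 0.079. Without DMSO replicate 1, 2 or 3, or 100 nM replicate 1, the 100 nM change was 0.93, 0.91, 0.96 and 0.74, with adjusted p of 0.073 to 0.16.

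After wash-out, GDF15 did not pass the adjusted test in any group. On day 15, DMSO arrays were at 8.17, 7.93 and 8.31 on slides 1, 2 and 3. The scan name of replicate 1 names 12 h and no DMSO, and its group rests on the sample label. Without it, the 3 day 15 changes were 0.56, 0.09 and 0.90. The 50 nM 12 h arrays were at 8.85, 8.28 and 8.90, and the 50 nM 24 h arrays at 7.69, 8.25 and 8.68, both overlapping DMSO, with changes of 0.54 and 0.07. The 100 nM arrays were at 9.38, 8.40 and 9.28, all above DMSO but spread by 0.54 (SD, n = 3). The change with 100 nM was 0.88 ± 0.27 (log2, SE; 95% interval 0.32 to 1.44; limma, unadjusted p = 0.0038, adjusted p = 0.53), which met the fold rule only. Without replicate 3 of that group, the array of the largest residual SD, it was 0.76 (adjusted p = 0.9999), and without replicate 2 it was 1.19 (adjusted p = 0.097). Within slides, the day 15 change with 100 nM was 0.44 to 1.21 and that with 50 nM for 12 h 0.34 to 0.67, whereas that with 50 nM for 24 h ran from -0.47 to 0.39.

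The 8 group means of GDF15, from highest to lowest, were 9.65 (day 8, 50 nM 24 h), 9.53 (day 8, 100 nM), 9.39 (day 8, 50 nM 12 h), 9.02 (day 15, 100 nM), 8.68 (day 15, 50 nM 12 h), 8.60 (day 8 DMSO), 8.20 (day 15, 50 nM 24 h) and 8.14 (day 15 DMSO). Each group overlapped its neighbours in this order. On day 8, 100 nM differed from 50 nM at 24 h by -0.12 (95% interval -0.68 to 0.44), and 24 h from 12 h of 50 nM by 0.26 (-0.30 to 0.82). On day 15, 100 nM exceeded 50 nM at 24 h by 0.82 (0.26 to 1.38; limma, unadjusted p = 0.0067, adjusted p = 0.67). The 100 nM change of day 15 differed from that of day 8 by -0.05 (-0.84 to 0.74; adjusted p = 0.97), and the 50 nM 24 h change by -0.99 (-1.78 to -0.20; unadjusted p = 0.017, adjusted p = 0.22). Between the DMSO cultures alone, GDF15 was lower on day 15 by 0.46 in mean, with no overlap of arrays and an adjusted p of 0.25 (limma).

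OMA1, the protease at the mitochondrial end of the relay, rose in all 3 rotenone groups of day 8. In DMSO on day 8 it was at 7.49, 7.45 and 7.62 on slides 1, 2 and 3. It was at 7.86, 7.98 and 8.09 after 50 nM for 12 h, at 8.15, 7.74 and 8.00 after 50 nM for 24 h and at 7.86, 7.92 and 8.06 after 100 nM. The lowest rotenone array thus lay above the highest DMSO array. The changes were 0.46, 0.44 and 0.43 (log2, each ± 0.11 SE), 1.34- to 1.37-fold and under the 1.5-fold rule, with adjusted p of 0.014, 0.012 and 0.013 (limma). Its 2 probes gave changes of 0.45 to 0.52 and 0.39 to 0.44. Taken alone, the first probe had adjusted p of 0.054 to 0.087 and the second 0.027 to 0.065. The call was lost without DMSO replicate 2 in all 3 comparisons (changes of 0.42, 0.41 and 0.39). It was also lost at 12 h without DMSO replicate 1 (0.44) or 12 h replicate 3 (0.40), and at 24 h without 50 nM replicate 1 (0.35) or 100 nM replicate 3 (0.37), with adjusted p up to 0.081. Without batch correction, on slides 2 and 3 alone and with only the arrays compared it was lost in all 3 comparisons, with changes of 0.33 to 0.51 and adjusted p of 0.066 to 0.44.

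On day 15 the OMA1 changes were -0.03, -0.12 and -0.04, with 95% intervals from -0.34 at the lowest to 0.19 at the highest. OMA1 also rose between the DMSO cultures, being at 7.81, 7.72 and 8.01 on day 15, 0.32 ± 0.11 above day 8 (limma, adjusted p = 0.032). That call was lost without day 8 DMSO replicate 1 or 2 (0.31 and 0.29) or day 15 DMSO replicate 1 or 3 (0.34 and 0.24). The difference between the days of the rotenone change was -0.49 for 50 nM at 12 h, -0.56 for 50 nM at 24 h and -0.46 for 100 nM, with adjusted p of 0.15, 0.057 and 0.12 (limma). None passed the threshold, and at an unadjusted p below 0.05 all 3 would.

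**Figure D1:**
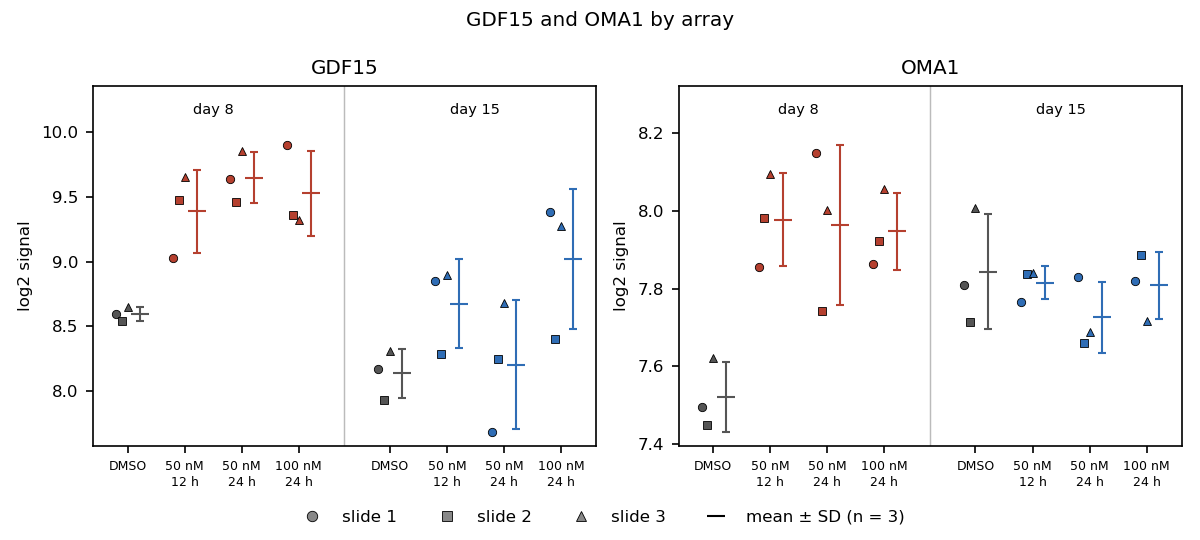
Log2 signal of GDF15 (left) and OMA1 (right) on each of the 24 arrays, by group, with circles for slide 1, squares for slide 2 and triangles for slide 3, and bars for the mean ± SD of 3 arrays. All 9 rotenone arrays of day 8 lie above the 3 DMSO arrays for both genes, and on day 15 only the 100 nM group of GDF15 does.

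Among the 4 eIF2 kinases, no rotenone comparison passed the adjusted test. EIF2AK1, the kinase that OMA1 and DELE1 act on, was at 10.14, 10.33 and 10.38 in day 8 DMSO on slides 1, 2 and 3. It was at 10.35, 10.58 and 10.55 after 50 nM for 12 h, at 10.65, 10.68 and 10.49 after 50 nM for 24 h and at 10.75, 10.74 and 10.41 after 100 nM. The groups of 24 h did not overlap DMSO, but the changes of 0.33 ± 0.16 and 0.35 ± 0.16 had adjusted p of 0.26 and 0.20 (limma). In the authors' deposited values the same 2 changes were 0.32 and 0.35 with adjusted p of 0.045 and 0.027. Between the days, EIF2AK1 fell in DMSO cultures by 0.51 ± 0.16 (limma, adjusted p = 0.023), from a mean of 10.28 to 9.77, and its day 15 rotenone changes were 0.09, 0.18 and 0.09. Without day 8 DMSO replicate 2 or 3, or day 15 DMSO replicate 3, the change between the days was -0.49, -0.46 and -0.34 and was not called (adjusted p = 0.068, 0.084 and 0.14).

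EIF2AK2 changed by 0.09 to 0.11 on day 8 and by -0.09 to 0.01 on day 15, with 95% intervals between -0.36 and 0.37. Its probes differed in sign in some comparisons, with 0.22 ± 0.15 and -0.04 ± 0.16 (SE) at 12 h of 50 nM on day 8. EIF2AK4 changed by -0.04, 0.14 and 0.03 on day 8 and by 0.05, 0.01 and -0.14 on day 15, with 95% intervals between -0.32 and 0.32. EIF2AK3 was at 6.73, 6.41 and 6.40 in day 8 DMSO and at 6.29, 6.40 and 6.58 in day 15 DMSO on slides 1, 2 and 3. Its day 8 changes with rotenone were -0.08, 0.14 and -0.18. On day 15 it was at 6.21, 6.25 and 5.92 after 50 nM for 12 h, at 6.27, 6.15 and 5.24 after 50 nM for 24 h and at 5.66, 6.78 and 5.29 after 100 nM. The changes of -0.30, -0.54 and -0.51 each had an SE of 0.29 and adjusted p of 0.9999, 0.9998 and 0.72 (limma), with 1 or 2 arrays far below the others in each 24 h group.

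ATF4 mRNA passed the test in no rotenone group. It was among the brightest signals, none of its spots being saturated, and on day 8 it was at 15.65, 15.46 and 15.42 in DMSO on slides 1, 2 and 3. It was at 15.41, 15.21 and 15.27 after 50 nM for 12 h, at 15.26, 15.19 and 15.38 after 50 nM for 24 h and at 15.22, 15.30 and 15.32 after 100 nM. All 9 rotenone arrays lay below the 3 DMSO arrays, with changes of -0.22, -0.23 and -0.23 (each ± 0.09 SE). The unadjusted p were 0.031, 0.021 and 0.021 and the adjusted p 0.23, 0.15 and 0.14 (limma), so the test was not passed. For 50 nM at 24 h the sign turned where arrays were scaled to their 75th percentile in place of quantile normalisation (changes of 0.02 and 0.04). Over the processing alternatives, the 100 nM change ran from -0.24 to -0.025 and the 50 nM 12 h change from -0.22 to -0.13. On day 15 the changes were -0.14, -0.06 and 0.05, all overlapping DMSO.

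Of the phosphatase subunits, PPP1R15A was at 10.51, 10.54 and 10.59 in day 8 DMSO on slides 1, 2 and 3. After 100 nM it was at 10.79, 10.90 and 10.79, above DMSO on every array, with a change of 0.28 ± 0.12 (limma, unadjusted p = 0.029, adjusted p = 0.17). After 50 nM the changes were 0.22 at 12 h and 0.07 at 24 h, both overlapping DMSO, and on day 15 they were -0.02, 0.20 and 0.01. PPP1R15B changed by -0.19, 0.17 and -0.02 on day 8 and by 0.09, -0.04 and 0.08 on day 15. It was higher after 24 h than after 12 h of 50 nM on day 8 by 0.37 ± 0.12 (unadjusted p = 0.0075, adjusted p = 0.22), with overlapping arrays.

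FGF21, the other mitokine, was not measurable on most arrays. Its probe was well above background on 8 of 24 arrays, those of slide 1, 1 in each group, and on none of slides 2 and 3. Its log2 signal there and elsewhere lay between 2.37 and 4.48, so no fold change is given.

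**Figure D2:**
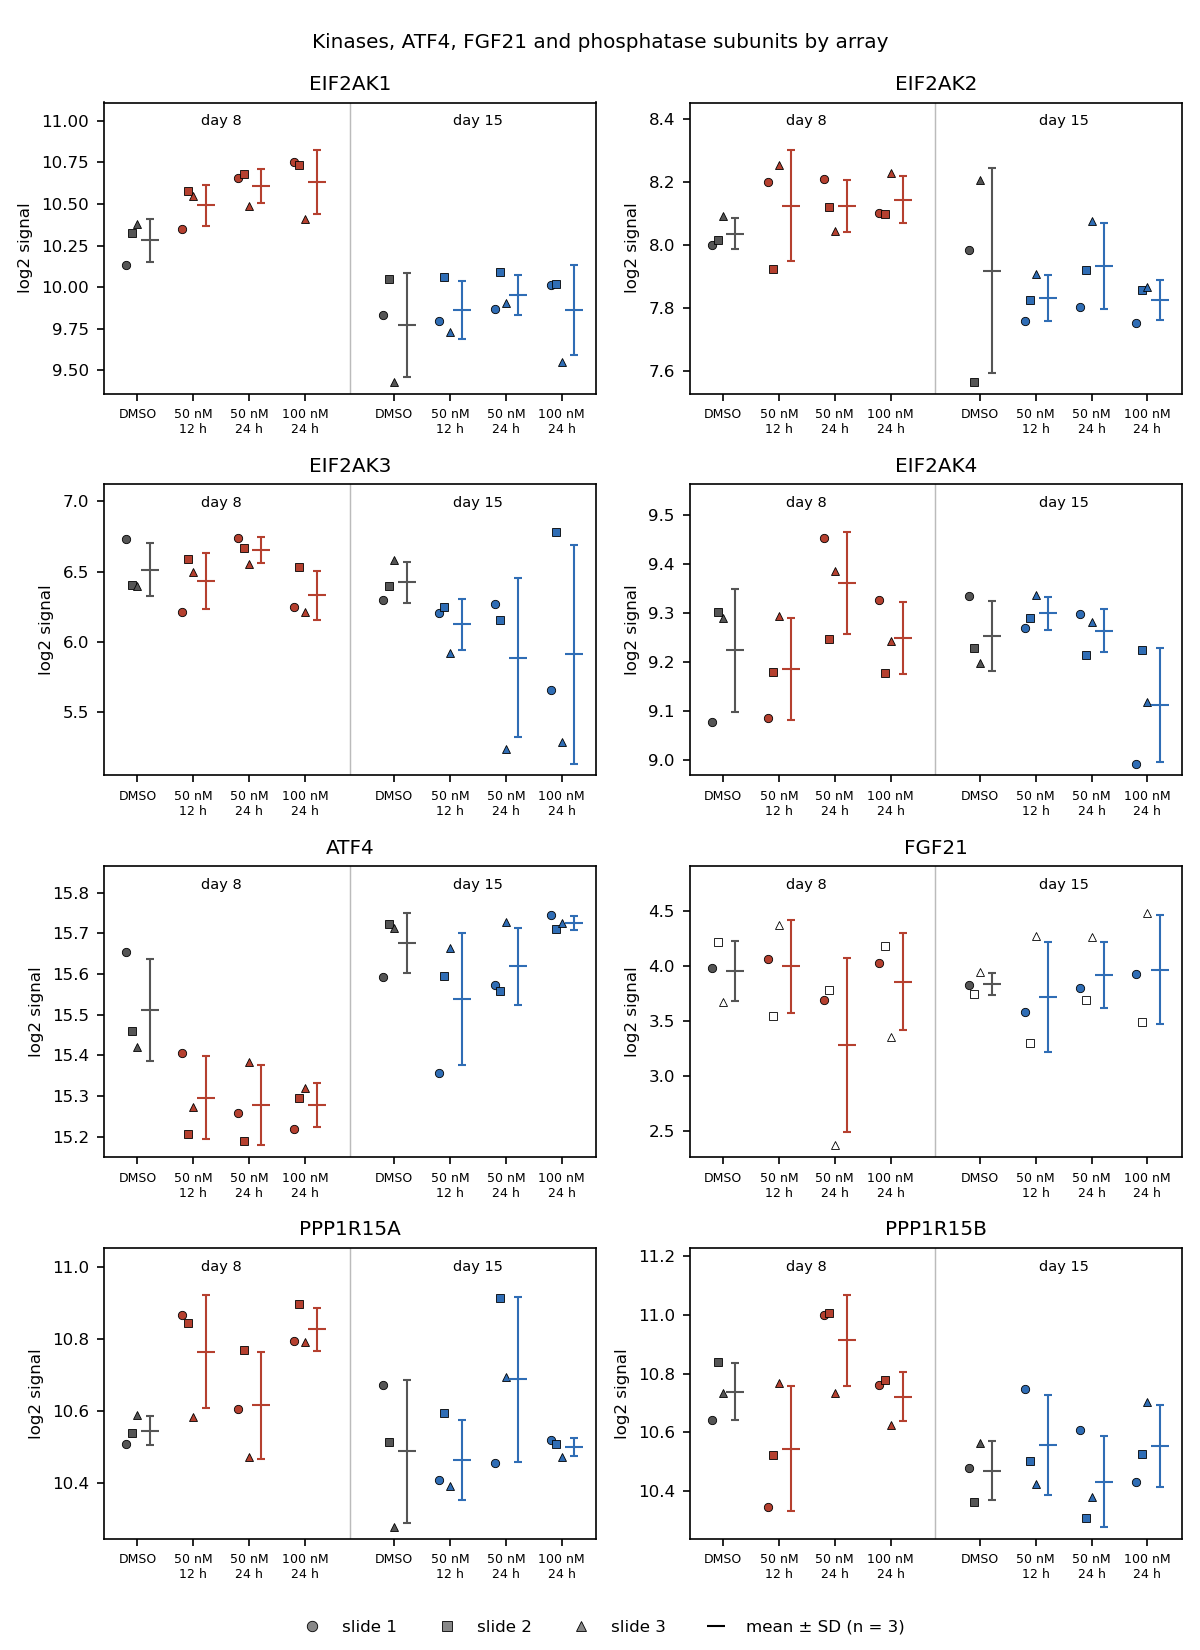
Log2 signal of the other 8 genes on each array by group, with circles for slide 1, squares for slide 2, triangles for slide 3, hollow marks where the probe was not well above background, and bars for the mean ± SD of 3 arrays. ATF4 lies lower in the rotenone groups of day 8 than in DMSO. This did not hold for 50 nM at 24 h when scaled to the 75th percentile, and the 100 nM change shrank to -0.025 in a processing alternative. EIF2AK1 lies lower on day 15 than on day 8 in all groups, and FGF21 is hollow on slides 2 and 3.

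Counted over the 10 genes, 1 of 10 (OMA1) rose at an adjusted p below 0.05 with 50 nM for 12 h on day 8. Of all genes, 5.52% were called in either direction and 2.66% called higher. With 50 nM for 24 h, 2 of 10 rose (GDF15 and OMA1), beside 8.02% of all genes in either direction and 3.66% higher. With 100 nM the same 2 of 10 rose, beside 9.48% in either direction and 4.07% higher. No member fell at that threshold. By the fold rule, GDF15 was the 1 member called in each day 8 comparison, beside 2.15%, 3.2% and 3.81% of all genes. At 12 h that call was lost without any 1 of the 3 DMSO arrays, without 12 h replicate 2 or 3, without batch correction and on slides 2 and 3 alone (unadjusted p of 0.012 to 0.041). With 100 nM it was lost without 100 nM replicate 1 and on slides 2 and 3 alone (0.020 and 0.045). On day 15 none of the 10 genes and 0% of all genes passed the adjusted threshold in any of the 3 rotenone comparisons (limma). At an unadjusted p below 0.05, 0, 0 and 1 member (GDF15 with 100 nM) and 3.47%, 3.28% and 7.21% of all genes were counted for 50 nM 12 h, 50 nM 24 h and 100 nM. By the fold rule the day 15 counts were 0, 0 and 1 of 10, beside 0.452%, 0.24% and 0.763% of all genes. The day 15 call of GDF15 was lost without DMSO replicate 2, without 100 nM replicate 1 or 3, on slides 2 and 3 alone and with only the arrays compared (unadjusted p of 0.019 to 0.052). The median change of the 10 genes with 100 nM was 0.07 on day 8 and 0.03 on day 15, and that of all genes -0.02 and -0.03. FGF21, not measurable on most arrays, is 1 of the 10 in these counts and medians.

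No member passed the adjusted test between doses or exposure times (limma). For 100 nM against 50 nM at 24 h, 0% of all genes passed on day 8 and 0.0377% on day 15, and 0 and 1 member (GDF15) had an unadjusted p below 0.05, beside 4.17% and 5.32% of all genes. For 24 h against 12 h of 50 nM, 0.537% passed on day 8 and 0% on day 15, and 1 and 0 members (PPP1R15B) had an unadjusted p below 0.05, beside 10.9% and 3.72%. Between the DMSO cultures of days 15 and 8, 2 of 10 members passed, OMA1 higher and EIF2AK1 lower, beside 23.2% of all genes. The rotenone change differed between the days in none of the 10 members, beside 2.44% of all genes for 100 nM, 2.16% for 50 nM at 24 h and 1.08% for 50 nM at 12 h. At an unadjusted p below 0.05, the days differed for 2 members with 100 nM (OMA1 and ATF4), 2 with 50 nM at 24 h (OMA1 and GDF15) and 1 with 50 nM at 12 h (OMA1), beside 14.4%, 13.9% and 11.3% of all genes.

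**Figure D3:**
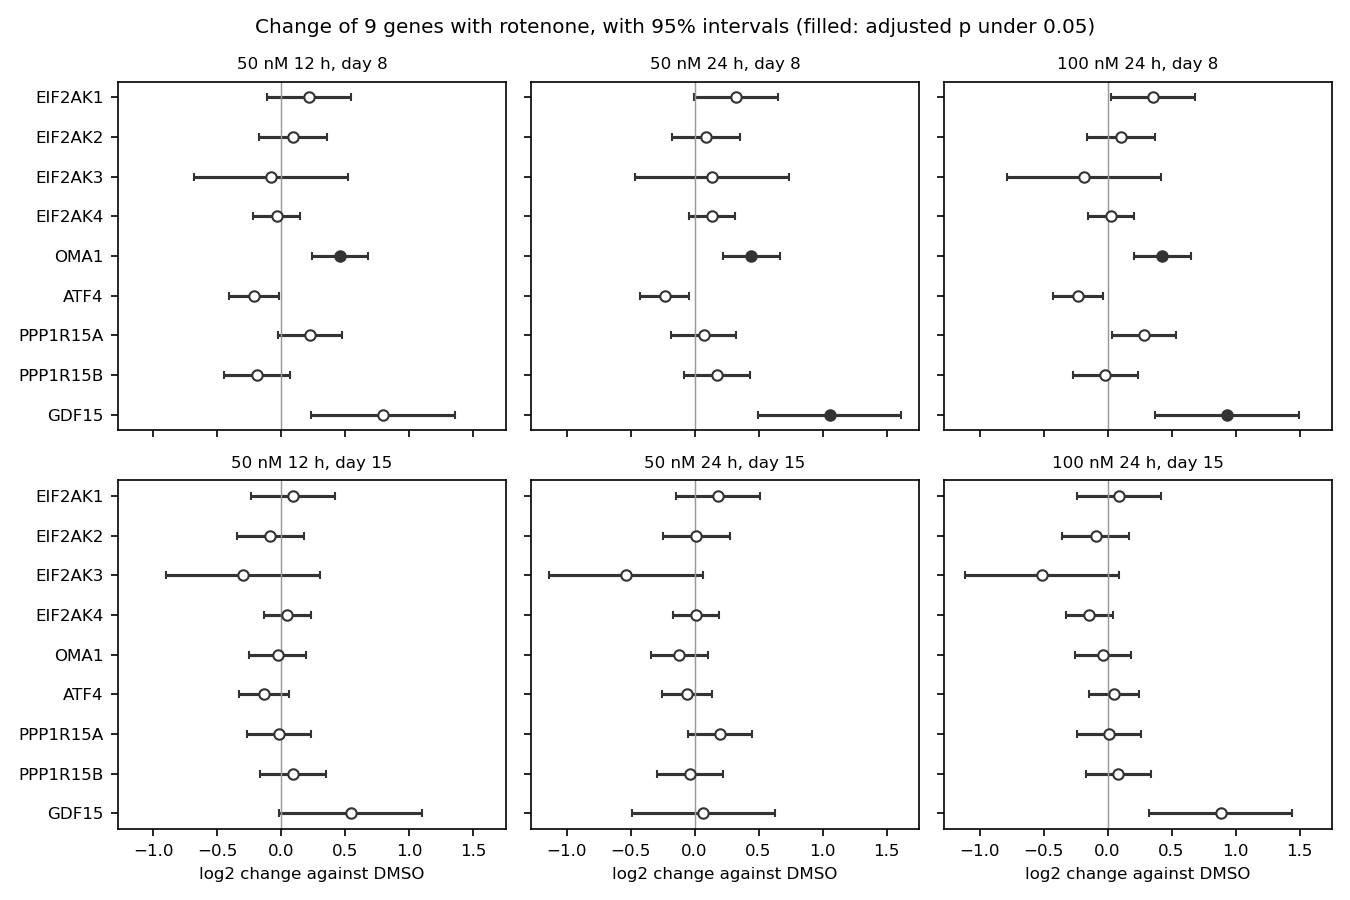
Log2 change against the DMSO arrays of the same day for the 9 genes above background, with 95% intervals from limma, day 8 in the upper row and day 15 in the lower, filled where the adjusted p was below 0.05. OMA1 is filled in 3 panels of day 8 and GDF15 in 2, and no point is filled on day 15.

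Of the genes that ATF4 is known to switch on, more fell than rose on day 8. The list held 22 such genes, mainly enzymes of serine, asparagine and one-carbon metabolism, amino acid transporters and tRNA ligases, and all 22 were tested. With 50 nM for 12 h, 10 fell and 1 rose, beside 2.85% of all genes called lower and 2.66% called higher. With 50 nM for 24 h, 5 fell and 1 rose, beside 4.36% and 3.66%, and with 100 nM 4 fell and 1 rose, beside 5.41% and 4.07%. The median change over the 22 genes was -0.34, -0.22 and -0.18, that of all genes -0.01, -0.02 and -0.02. On day 15 none of the 22 and 0% of all genes passed with 100 nM, and the median of the 22 was 0.01. Fewer fell on slides 2 and 3 alone (2, 2 and 1) and with only the arrays of the groups compared (1, 3 and 2). On slides 2 and 3 alone the medians were -0.30, -0.02 and -0.12, the second close to the -0.02 of all genes there. Without DMSO replicate 1, 6, 4 and 4 fell and the medians were -0.29, -0.12 and -0.09. Without 50 nM 24 h replicate 1, 4 fell at 24 h of 50 nM and the median was -0.13.

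PHGDH, the first enzyme of serine synthesis, fell by 0.91, 1.02 and 1.03 on the log2 scale with 50 nM for 12 h, 50 nM for 24 h and 100 nM (adjusted p = 1.3e-04, 2.4e-05 and 1.5e-05). ASNS, which makes asparagine, fell by 0.48, 0.56 and 0.55 (adjusted p = 0.0014, 2.5e-04 and 1.9e-04). SESN2, an inhibitor of mTORC1, fell by 0.77, 0.49 and 0.55 (adjusted p = 1.3e-04, 0.0038 and 0.0013). CHAC1, a glutathione-degrading enzyme, fell by 1.101 at 12 h, and by 0.68 and 0.43 at 24 h of 50 and 100 nM (adjusted p = 1.1e-05, 7.5e-04 and 0.019). CTH, which makes cysteine, was the member of the list that rose, by 0.54, 0.30 and 0.29 (adjusted p = 2.9e-04, 0.018 and 0.020).

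DDIT4, an inhibitor of mTORC1, PSAT1 and PSPH, of serine synthesis, SHMT2 and MTHFD2, of mitochondrial folate metabolism, and SARS1, the serine tRNA ligase, fell at 12 h, by 0.31 to 0.63 (adjusted p = 8.5e-04 to 0.041). At 24 h none of these 6 passed, and between 24 h and 12 h of 50 nM only SHMT2 of the 6 differed by the test (0.43 higher at 24 h, limma, adjusted p = 0.022). ALDH1L2, another mitochondrial folate enzyme, fell by 0.76 with 50 nM for 24 h (adjusted p = 0.042), with changes of -0.65 at 12 h and -0.66 with 100 nM that did not pass.

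**Figure D4:**
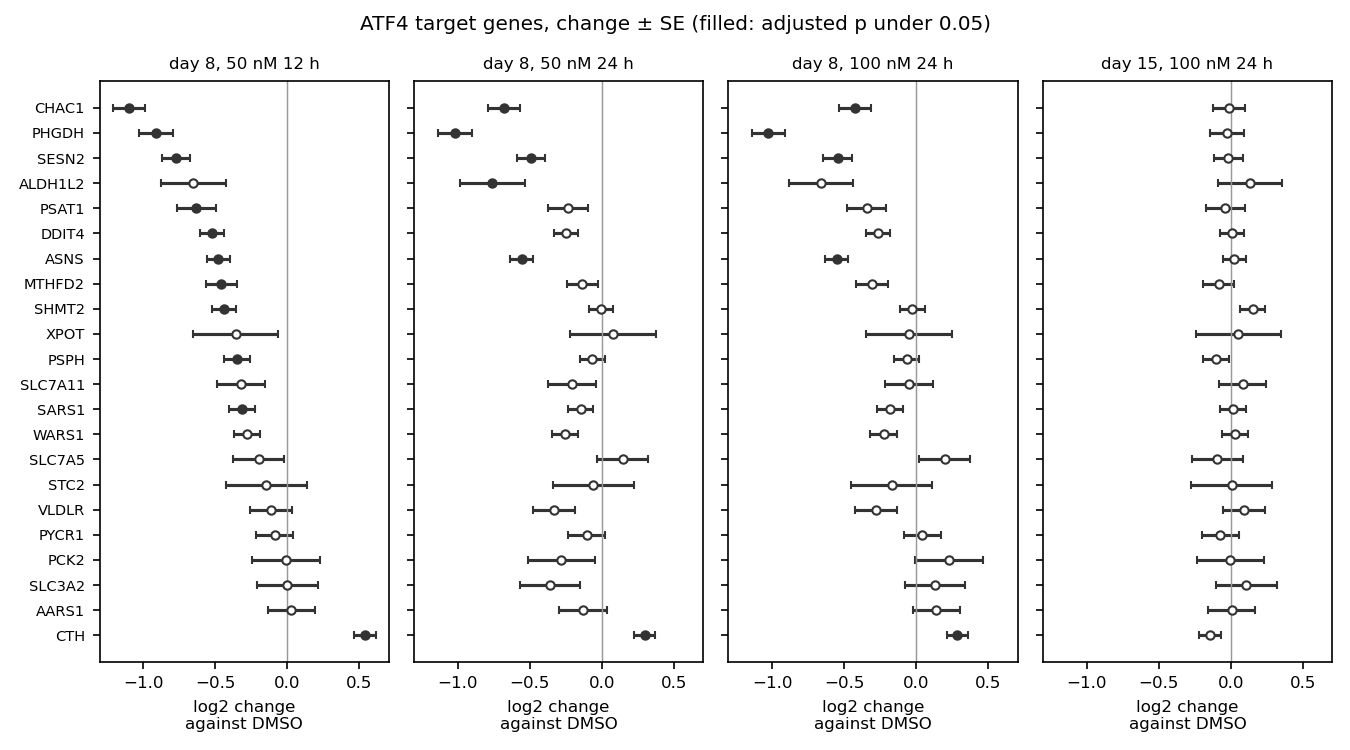
Log2 change ± SE of the 22 ATF4 target genes against the DMSO arrays of the same day, ordered by the change with 50 nM for 12 h and filled where the adjusted p was below 0.05. On day 8 the filled points lie left of 0 except CTH, and on day 15 with 100 nM all points are hollow, between -0.14 (CTH) and 0.15 (SHMT2).

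Some other transcription factors of the response passed the test. Calls of single genes of this and the other lists were not rechecked under other processing or with arrays left out. Of 8 stress transcription factors and feedback genes, 2 rose at 24 h of each dose, beside 3.66% and 4.07% of all genes called higher, and 1 fell at 12 h, beside 2.85% called lower. CEBPB, a partner of ATF4 in binding DNA, rose by 0.63 with 50 nM and 0.64 with 100 nM at 24 h (adjusted p = 9.5e-04 and 6.6e-04), with 0.25 at 12 h (adjusted p = 0.21). ATF5, a factor tied to mitochondrial stress, rose by 0.42 and 0.50 (adjusted p = 0.049 and 0.016), with 0.08 at 12 h. JDP2, a repressor of AP-1, fell by 0.73 at 12 h (adjusted p = 0.0078). On day 15 none of the 8 and 0% of all genes passed with 100 nM. There JDP2 had the smallest p of the 8, with a change of -0.42 (limma, adjusted p = 0.63).

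Of the translation factors themselves, 7 of 8 eIF2 and eIF2B subunits were tested, and 1 fell in each day 8 comparison, beside 2.85%, 4.36% and 5.41% of all genes called lower. EIF2S2, the beta subunit of eIF2, fell by 0.54, 0.31 and 0.35 (adjusted p = 0.0017, 0.048 and 0.020). EIF2B1 was at -0.20 with 100 nM (adjusted p = 0.10), and EIF2S1, the subunit the kinases phosphorylate, was at -0.15 with 100 nM on day 15 (adjusted p = 0.76). The median of the 7 was -0.11 with 100 nM on day 8. Among 12 partners of the kinases and of OMA1, none passed with 100 nM on either day. Of all genes, 9.48% passed on day 8 and 0% on day 15. On day 8, PHB1 was at -0.15 and GCN1 at -0.22 (limma, adjusted p = 0.34 and 0.39). On day 15, YME1L1, a protease that opposes OMA1, was at -0.14 (limma, adjusted p = 0.72).

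Some genes of the endoplasmic reticulum response fell at 24 h. Of 12, none passed at 12 h, 2 fell with 50 nM for 24 h and 4 fell with 100 nM, and none rose, beside 2.85%, 4.36% and 5.41% of all genes called lower. With 100 nM, DNAJB9 fell by 0.49, HSPA5 by 0.46, HERPUD1 by 0.46 and SEL1L by 0.63 (adjusted p = 7.6e-04, 0.011, 0.019 and 0.020). The first 2 are chaperones of the endoplasmic reticulum and the last 2 act in the disposal of its misfolded proteins. The median of the 12 was -0.36 with 100 nM, with all 12 below 0, and -0.08 on day 15, where HSP90B1 had the smallest p (change -0.29, adjusted p = 0.70). Of 8 mitochondrial chaperones and proteases none passed with rotenone on day 8 or with 100 nM on day 15. Of all genes, 5.52%, 8.02% and 9.48% passed in the day 8 comparisons and 0% with 100 nM on day 15. With 100 nM, HSPD1 was at -0.26 and HSPA9 at -0.38 on day 8 (limma, adjusted p = 0.074 and 0.16). CLPX was at 0.17 with 100 nM on day 15 (limma, adjusted p = 0.72).

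Of 8 other factors known to act on GDF15, EGR1 alone passed and fell in all 3 day 8 groups, by 0.79, 0.63 and 0.52 (limma, adjusted p = 0.0023, 0.010 and 0.028). This 1 of 8 stood beside 2.85%, 4.36% and 5.41% of all genes called lower. The p53 target CDKN1A was at 0.43 with 100 nM on day 15 (adjusted p = 0.75), and the NFE2L2 probe was well above background on none of the arrays compared. Of 7 receptors of the mitokines, 1 rose with 50 nM for 24 h on day 8, beside 3.66% of all genes called higher. It was FGFR3, with a rise of 0.72 (limma, adjusted p = 0.012). FGFR3 was at 0.32 with 100 nM (adjusted p = 0.33) and at 0.79 on day 15 (adjusted p = 0.24, with 1 of 3 DMSO arrays well above background). FGFR1 was at -0.28 with 100 nM on day 8 (adjusted p = 0.50). GFRAL, the receptor of GDF15, was well above background on none of the day 8 DMSO and 100 nM arrays, and was named after its values were seen.

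The 5 genes whose values most resembled GDF15 over the 24 arrays, among 15631 genes well above background on all 3 arrays of a group, were MYBPHL (Pearson r = 0.95), SLX9 (0.87), ACOT9 (0.87), GM2A (0.86) and NPPC (0.86). The arrays share 8 groups and 3 slides, so these values describe likeness and carry no test. The day 8 changes of NPPC, the precursor of C-type natriuretic peptide, were 0.77, 0.95 and 1.03, close in size to those of GDF15, and its day 15 change with 100 nM was 0.57. MYBPHL, a muscle-type myosin-binding protein, changed by 0.35, 0.43 and 0.40 on day 8 and by 0.26 with 100 nM on day 15.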

How the data were processed

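RNA of 24 LUHMES cultures was hybridised to one-colour Agilent 60K arrays. Per the labels, the authors used Agilent Feature Extraction 11.5.1.1 and R 3.5; the deposited scanner files name 12.0.0.7 for slide 2. They deposited spot intensity, and a table of normalized log2 values used here as an alternative.

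Median intensity was background-corrected (normexp, offset 0), quantile-normalised and adjusted for slide 1 by a parametric empirical Bayes (ComBat) step in R 4.3.3. The ComBat step kept the groups as covariates, and the later fit took no degrees of freedom for it. Spots at least 1.1 times the 95th percentile of negative controls on 3 arrays were kept, flagged spots set missing, and probes averaged per gene. Of 48317 probes, 29394 were named through RefSeq accessions. limma 3.58.1 fitted all 24 arrays, with Benjamini-Hochberg adjustment over 21240 genes. Only the batch adjustment and the fit were tested on simulated data, with independent errors apart from a slide 1 shift. Replicate number is the slide, and before batch correction same-numbered arrays deviated together from their group means. Their median correlation was 0.46 (84 pairs, lowest 0.17), against -0.35 for differently numbered arrays (168 pairs, highest 0.37). With 3 arrays a group, their number limits precision.

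The members and gene lists were chosen with earlier results of these data known. Named genes were all members and, per list, those called with rotenone, the 2 smallest p on day 8 and the smallest on day 15 (100 nM), plus 5 genes most like GDF15. Alternatives were the processed signals, 75th percentile scaling, an offset of 50, no batch correction, the slide as a replicate block, slides 2 and 3 alone, the deposited values, other filters, the brightest probe, the compared groups alone and each array left out. The counts of ATF4 target genes under these were added after seeing the data. Single genes other than the members were not checked under these alternatives.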

Additional observations from a re-analysis of the deposited data

Results flagged for a closer look

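No member of the relay differed between the days at an adjusted p below 0.05, by limma's test of the difference itself. Some genes of its lists did. For each, the value is the change against DMSO on day 15 minus that on day 8, so a fall that was gone on day 15 is positive. Of 22 ATF4 target genes, 5 were positive and 1 negative with 50 nM for 12 h, beside 1.08% of all genes called. With 50 nM for 24 h, 4 were positive, beside 2.16%. With 100 nM, 2 were positive and 1 negative, beside 2.44%. Of 8 stress transcription factors and feedback genes, 1 was called, with 50 nM for 24 h. No gene of the other lists passed. PHGDH differed by 0.86 with 50 nM for 12 h, 1.12 with 50 nM for 24 h and 0.9998 with 100 nM (adjusted p = 0.016, 0.0014 and 0.0022). ASNS differed by 0.50, 0.57 and 0.58 in the same order (adjusted p = 0.044, 0.012 and 0.0088). CHAC1 differed by 0.94 with 50 nM for 12 h and 0.65 with 50 nM for 24 h (adjusted p = 0.0063 and 0.038). SESN2 differed by 0.68 and 0.56 in those 2 comparisons (adjusted p = 0.026 and 0.042). DDIT4 differed by 0.49 with 50 nM for 12 h (adjusted p = 0.049). CTH, which had risen on day 8, differed by -0.56 with 50 nM for 12 h and -0.43 with 100 nM (adjusted p = 0.015 and 0.036), and CEBPB by -0.69 with 50 nM for 24 h (adjusted p = 0.021). These single-gene differences were not rechecked under the processing alternatives or with arrays left out. Over all genes, the 100 nM count of 518 became 10 on slides 2 and 3 alone and 88 without batch correction. Day 15 DMSO replicate 1, whose scan name does not name DMSO, enters every value.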

How the results depend on the processing

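In the processing alternatives, no call of a member turned direction. GDF15 lost its day 8 calls without batch correction (1.06 for 50 nM at 24 h and 0.92 for 100 nM) and on slides 2 and 3 alone (1.06 and 0.73). It gained the 50 nM 12 h call with a normexp offset of 50 (0.72) and in the deposited values (0.77). The count of members called on day 8 was 1, 2 and 2 for 50 nM 12 h, 50 nM 24 h and 100 nM. It was 0 in each without batch correction and on slides 2 and 3 alone, 0, 1 and 1 with only the arrays of the groups compared, 2 at 12 h with the offset of 50, and 2, 3 and 3 in the deposited values. Between DMSO days the count of 2 became 0, 0, 1 and 1 without batch correction, on slides 2 and 3 alone, with only those groups and with the brightest probe, and 3 with processed signals (PPP1R15B added). With only those groups the 1 was GDF15 (-0.46), and OMA1 and EIF2AK1 were lost. With single arrays left out, GDF15 changed by 0.66 to 0.97, 0.95 to 1.15 and 0.74 to 1.04 on day 8, and by 0.43 to 0.74, -0.17 to 0.33 and 0.70 to 1.19 on day 15. The member counts then ranged from 0 to 1 (50 nM 12 h) and from 0 to 2 (both 24 h groups of day 8 and DMSO days), and stayed at 0 on day 15. The replicate block in place of ComBat changed no member's call, with counts of 1, 2 and 2. All genes called on day 8 numbered 1172, 1704 and 2014, and 47 to 1883, 216 to 2526 and 229 to 2841 in the other alternatives, fewest on slides 2 and 3 alone. Between DMSO days, 4935 became 1857 to 6005, and for the difference between days with 100 nM, 518 became 10 to 1060. By the fold rule, 456, 680 and 809 on day 8 became 198 to 697, 331 to 975 and 397 to 1076, and 96, 51 and 162 on day 15 became 2 to 108, 2 to 73 and 13 to 252. With single arrays left out, the day 8 counts of all genes were 706 to 881, 1062 to 1217 and 1247 to 1573. On day 15 with 100 nM, the adjusted count of 0 became 19 without 100 nM replicate 1 and 9 without replicate 2, and the fold rule count of 162 became 619, 456 and 89 without replicates 1, 2 and 3 and 252 without DMSO replicate 1. For 50 nM on day 15 it became 225 without 12 h replicate 2, and 105 without 24 h replicate 1 or 84 without DMSO replicate 1. Processed signals moved the median of all genes by 0.13 with 100 nM on day 8 and by 0.19 between DMSO days, and 75th percentile scaling moved it by 0.10 with 100 nM on day 15 and by 0.14 for its difference between days. The causes were not tested. With 3 arrays a group, and probes such as FGF21 near background, small changes could go undetected.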
